A study of Mus musculus with 4 samples.

Results

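Saa1, Saa2, Saa3, Saa4, Lcn2, Hp, Orm1, Orm2 and Ptx3 encode secreted proteins of the acute-phase response, and their mRNA was followed over 4 arrays of IMS/N mouse hepatic stellate cells. The 9 genes were taken by their names in the array files and are read by 12 probes, of 26683 genes and 41174 probes in all. The 4 groups hold 1 array each: untreated cells, cells given recombinant murine IL17A, cells given medium from cultured adipose tissue-derived stem cells (ADSCs), and cells given both. All 4 share the same cells, a stellate cell line made from normal 129/Sv mice by SV40 infection. The ADSCs that supplied the medium came from inguinal fat of male C57BL/6J mice of 8 to 10 weeks. No group was repeated, so there is no spread between cultures, and 4 arrays limit the precision of every value.

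In the acute-phase response, cytokines released at a site of injury or infection switch on a set of secreted proteins, most of them made by hepatocytes and some also by connective tissue cells. IL-17A is a cytokine of T cells that acts on epithelial and mesenchymal cells, where the I-kappa-B family member encoded by Nfkbiz and C/EBP factors take part in switching on target genes, Lcn2 among them. Serum amyloid A proteins travel on high-density lipoprotein, lipocalin-2 withholds iron from bacteria by binding siderophores, haptoglobin binds free haemoglobin, orosomucoids carry small lipophilic ligands, and pentraxin 3 is a soluble pattern recognition protein. Hepatic stellate cells store retinoids and turn into collagen-producing cells in fibrosis.

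Probe sequences are shown for Saa3 and Lcn2, the members with the widest ranges on the log2 scale, and for Saa1, whose probes disagree, since they say what each spot read. All are 60 bases long, and positions are on mm9 as the files give them. The Saa3 probe lies at chr7:53968031-53968090 on the minus strand, and the file lists an Saa1 transcript beside the Saa3 transcript for it. The Lcn2 probe spans 245 bases of the genome at chr2:32241037-32241281 on the minus strand, so its 60 bases are split by an intron. The first Saa1 probe lies at chr7:53996070-53996129 and the second at chr7:53996167-53996639, both on the minus strand.
Saa3: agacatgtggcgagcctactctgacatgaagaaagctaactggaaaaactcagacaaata
Lcn2: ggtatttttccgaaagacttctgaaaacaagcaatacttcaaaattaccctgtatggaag
Saa1, first probe: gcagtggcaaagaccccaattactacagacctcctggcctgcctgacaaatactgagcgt
Saa1, second probe: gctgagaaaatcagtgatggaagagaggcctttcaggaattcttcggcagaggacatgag
The first Saa1 probe was well above background on all 4 arrays, and the second was on none of them, with processed signals of 1.03 to 1.30. Every Saa1 value below comes from the first. No other probe of the array shares a run of 20 or more bases with any of the 12, which does not exclude binding of the near-identical Saa1 and Saa2 transcripts to each other's probes. The 6 probes of the Saa genes lie within 41.6 kb of chromosome 7.

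Of the 9 genes, 5 were well above background on at least 1 array, 4 of these on at least 2, and 2 on all 4. Saa3 had the widest range of the members on the log2 scale. The IL17A array read a processed signal of 710.5 for it and the array with both agents 85.0, while untreated cells gave 1.52 and ADSC medium alone 1.12. It was well above background only on the arrays with IL17A, where the scanner software's own error was 71.1 and 8.60. Lcn2 had the same pattern, with processed signals of 250.4, 42.4, 1.44 and 1.07 in that order, and it too was well above background only with IL17A. For both genes the array with IL17A alone was the highest, the array with both agents came next, and the remaining 2 were below background and have no order.

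Ptx3 was bright on all 4 arrays. Untreated cells gave a processed signal of 3157, IL17A 10171, ADSC medium 3033 and both agents 7672. A second Ptx3 probe, which overlaps the first on chromosome 3, read 2585, 8889.7, 2686 and 6936 in the same order. On both probes the arrays with IL17A stood above those without. The first Saa1 probe read 81.0, 179, 50.5 and 66.8 in that order, so that the array with both agents stood below untreated cells. Hp was above background on the IL17A array alone, at a processed signal of 6.92 with an error of 1.39, and lay between 1.05 and 1.48 on the other arrays. Saa2, Saa4, Orm1 and Orm2 were not well above background on any array, with Saa2 between 1.21 and 4.87 and the others between 1.0 and 2.97.

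**Figure D1:**
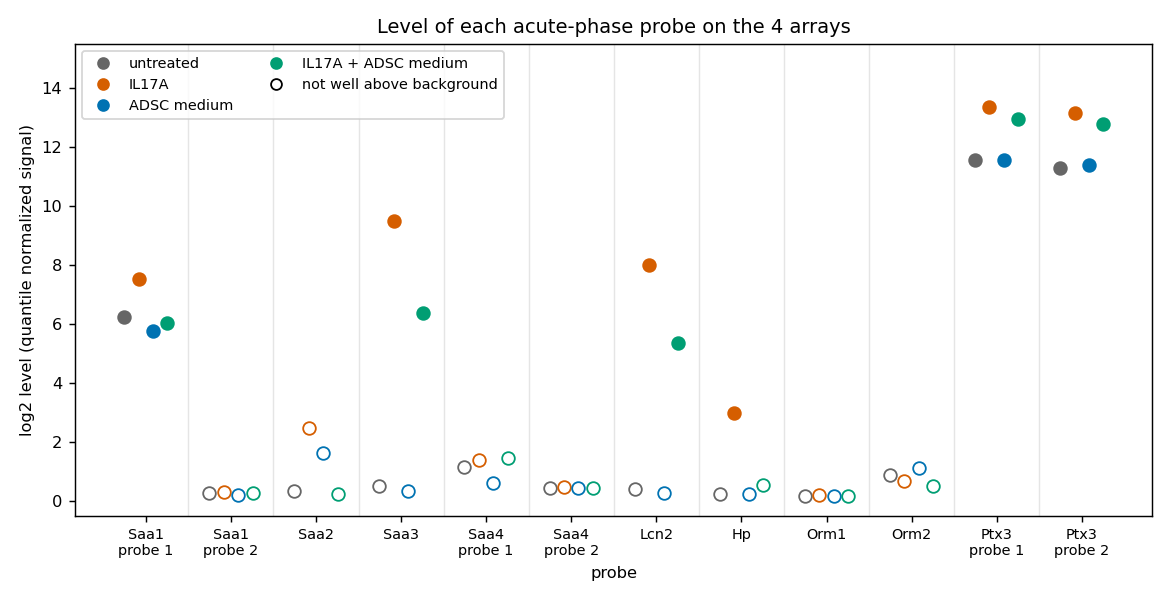
Log2 quantile-normalized level (vertical axis) of each of the 12 probes on the 4 arrays, 1 point per array coloured by group, with open points where the probe was not well above background. Saa3 and Lcn2 reach 9.49 and 8.00 with IL17A and 6.38 and 5.35 with both agents, whereas Saa2, Saa4, Orm1 and Orm2 have no filled point.

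IL17A against untreated cells compares 2 arrays of the same slide. Levels are log2 processed signals after quantile normalization over the 4 arrays, and a gene counted as higher or lower at 2-fold or more, a log2 difference of at least 1, provided that the brighter of its spots stood well above background. A spot at background on the dimmer array was first raised to the dimmest level that counted as detected on that array, unless it was already brighter, and the fold is then given as "at least". With IL17A, 5 of the 9 genes could be compared, of which 4 were higher and none was lower. Saa3, Lcn2 and Hp were above background on the IL17A array only, so the rule could not have called them lower. Of the 15869 genes compared in all, 4.46% passed the rule in either direction, 2.17% higher and 2.29% lower. Saa3 was at least 142-fold higher, ranking 1 of 15869 genes with bounds counted at their limit, and Lcn2 at least 50.5-fold higher, ranking 5. Ptx3 was 3.44-fold higher, with a log2 difference of 1.78, and its second probe gave 3.66-fold. Saa1 was 2.45-fold higher, with a log2 difference of 1.29. Hp was at least 1.56-fold higher and so did not pass the 2-fold rule. These limits depend on how background is taken off. After normexp correction at an offset of 50, the limits for Saa3 and Lcn2 were log2 differences of at least 3.65 and 2.41. Those replace at least 7.15 and 5.66. Saa1 was then at 0.85, under the rule.

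No test is possible between single arrays, but spots printed in replicate show how precisely an array reads a probe. The SD of the log2 difference between arrays over such spots was 0.065 at levels of 7 or more, 0.12 at levels from 5 to 7 and 0.25 below 5. The Ptx3 and Saa1 differences with IL17A are larger than these values. That SD holds the error of reading only, since culture, RNA and labelling were not repeated.

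In ADSC medium the IL17A comparison was repeated on the other slide, with both agents set against medium alone. There 4 of the 9 genes could be compared, of which 3 were higher and none was lower. Saa3 and Lcn2 were above background only with both agents, so here too they could not have been called lower. Of the 16068 genes compared in all, 4.68% passed the rule in either direction, 2.86% higher and 1.82% lower. Saa3 was at least 15.0-fold and Lcn2 at least 7.33-fold higher, ranking 13 and 38 of 16068 genes. Ptx3 was 2.62-fold higher, with a log2 difference of 1.39 on the first probe and 1.40 on the second. Saa1 was at a log2 level of 6.02 with both agents and 5.76 with medium alone, a difference of 0.26, which does not pass the 2-fold rule. Hp was below background on both arrays. With normexp correction Saa3 was higher by at least 1.28 in place of at least 3.91. The limit for Lcn2, at least 0.84 in place of at least 2.87, did not reach the rule.

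**Figure D2:**
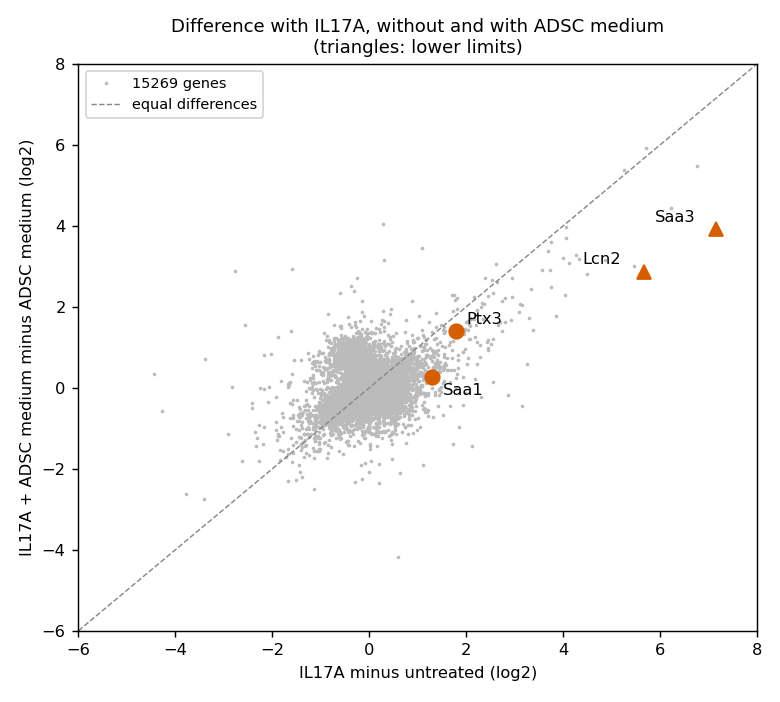
Log2 difference with IL17A in ADSC medium (vertical axis) against that without medium (horizontal axis) for 15269 genes, with 4 members named and triangles for lower limits. Saa1, at 1.29 without and 0.26 with medium, and Ptx3 lie below the line of equal differences. Saa3, at 7.15 and 3.91, and Lcn2 are plotted at lower limits on both axes, so their side of the line is not known.

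Saa1 and Ptx3 are the members measured on all 4 arrays, and for them the 2 IL17A differences can be subtracted. The IL17A difference in medium minus that without medium was -1.03 for Saa1, and 1.37% of the 14480 genes detected on all 4 were at or below that value. For Ptx3 it was -0.39, with 11.6% of genes at or below, beside a median over all these genes of -0.03. For Saa3 and Lcn2 no such value can be given, since both differences are bounds. The IL17A differences do not share an array, but whether they differ was not tested, since no group was repeated.

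The IL17A effect over both pairs of arrays was tested with an additive limma fit, with terms for IL17A and for medium, over the 15472 genes detected on 2 or more arrays. The fit has 1 residual degree of freedom per gene, leans on the spread estimated over all genes, and assumes the same effect with and without medium. It called 6.33% of genes at an adjusted p under 0.05, 2.54% higher and 3.79% lower. Ptx3 was higher with IL17A by 1.59 on the log2 scale (SE 0.0918, limma adjusted p = 0.000627). With genes detected on all 4 arrays, the limma adjusted p of Ptx3 was 0.000745. Saa1 was higher in each pair, by 0.78 on average (SE 0.257), and did not pass (limma adjusted p = 0.16). Without the trend of the spread with level, no gene passed in the limma fit after adjustment, 1852 genes had an unadjusted p under 0.05, and the adjusted p of Ptx3 was 0.332. With median scaling the limma adjusted p of Ptx3 was 0.0565. Saa3 and Lcn2 entered the fit only through the 2 IL17A arrays on which they were detected, so they had to differ, and no p is given for them.

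ADSC medium alone, set against untreated cells, left 2 members to compare, and neither passed the 2-fold rule, beside 5.42% of 16102 genes that did, 2.45% higher and 2.97% lower. The medium arrays lie on 1 slide and the others on another, so medium and slide cannot be told apart here. Saa1 was at 5.76 with medium and 6.23 without, a log2 difference of -0.47. Ptx3 was at 11.55 and 11.58, a difference of -0.03 that turned to 0.06 with scaling to the 75th percentile and to 0.28 with scaling to the median, and its second probe gave 0.10. Saa3, Lcn2 and Hp were below background on both arrays.

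Both agents against IL17A alone is the comparison behind the submitters' second gene list. It sets levels in IL17A-treated cells with medium against those without. It therefore also holds any difference that medium makes without IL17A, which was -0.47 for Saa1, and is not by itself a change in the IL17A response. This comparison shares the IL17A array with the comparison against untreated cells, and medium and slide cannot be told apart in it either. Here 5 of the 9 genes could be compared, of which 3 were lower and none was higher. Hp, above background with IL17A alone only, could not have been called higher. Of the 15876 genes compared in all, 6.33% passed the rule in either direction, 3.22% higher and 3.11% lower. Saa3 was 8.63-fold lower, with log2 levels of 6.38 and 9.49, and Lcn2 was 6.29-fold lower, with 5.35 and 8.00. These ranked 10 and 20 of 15876 genes from the lowest. Saa1 was 2.83-fold lower, at 6.02 against 7.52. Ptx3 was 1.33-fold lower, at 12.94 against 13.36, which does not pass the 2-fold rule, and Hp was at least 1.54-fold lower. With normexp correction these log2 differences were -2.34 for Saa3, -1.6 for Lcn2 and -0.85 for Saa1, the last under the rule, in place of -3.11, -2.65 and -1.5.

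On the linear scale, the level with both agents was 11.6% of the level with IL17A for Saa3, 15.9% for Lcn2, 35.3% for Saa1 and 74.9% for Ptx3. For both agents together against untreated cells, 4 of the 9 genes could be compared, of which 3 were higher and none was lower. Saa3 and Lcn2, below background in untreated cells, could not have been called lower. Of the 16241 genes compared in all, 7.67% passed the rule in either direction, 3.38% higher and 4.29% lower. Saa3 was still at least 16.5-fold and Lcn2 at least 8.03-fold higher, and Ptx3 was 2.57-fold higher. With normexp correction Saa3 was higher by at least 1.31 on the log2 scale in place of at least 4.04. The limit for Lcn2, at least 0.81, did not reach the rule. Saa1 was at 6.02 against 6.23, a difference of -0.21, which is less than 2 SDs of reading at that level (0.12).

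**Figure D3:**
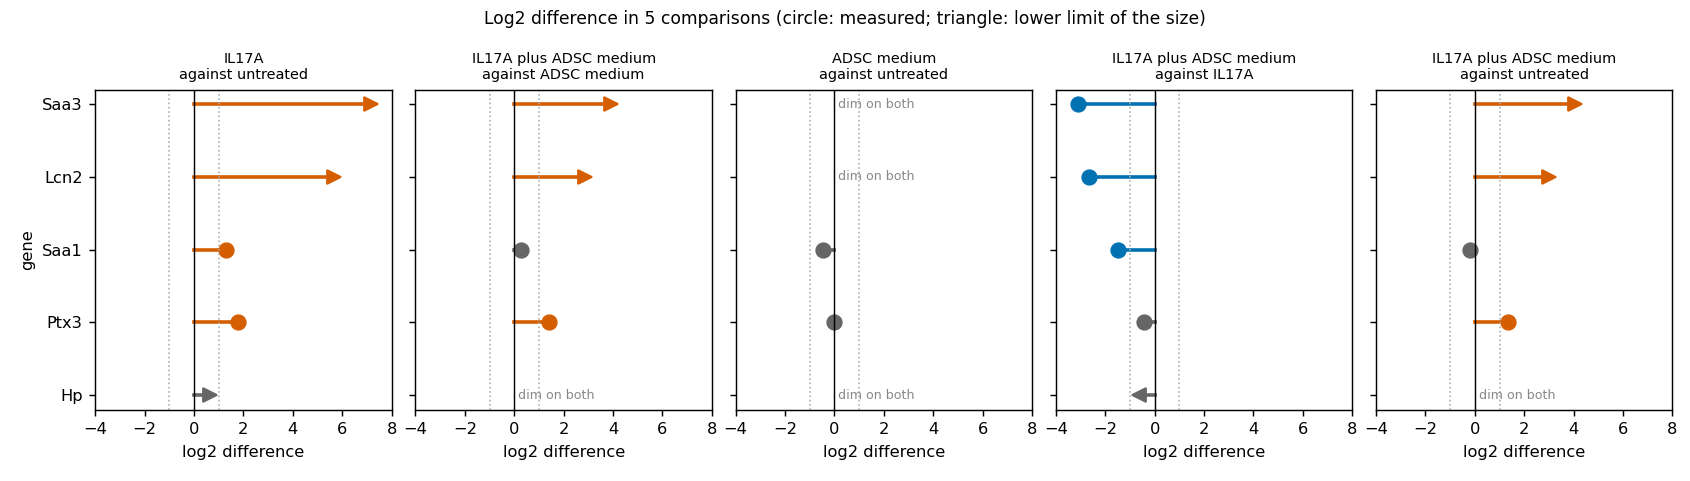
Log2 difference (horizontal axis) of the 5 members above background on any array in 5 comparisons, with circles for measured values, triangles for lower limits and dotted lines at 2-fold. Saa3, Lcn2, Saa1 and Ptx3 are higher with IL17A, by at least 7.15, at least 5.66, 1.29 and 1.78, and with both agents against IL17A alone Saa3, Lcn2 and Saa1 are lower by more than 1.

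Other genes of the acute-phase network were taken from lists. Of 29 further positive acute-phase genes on the array, 15 were measured with IL17A or without, and 6 were higher and none lower with IL17A, beside 2.17% of all genes higher. Complement C3 was 43.8-fold higher and ceruloplasmin, Cp, a copper-carrying ferroxidase, 15.9-fold higher. Il1rn, which encodes the interleukin-1 receptor antagonist, was 6.27-fold higher. Lbp and Cd14, which hand lipopolysaccharide to its receptor, were higher by 1.83 and 1.41 on the log2 scale, and the metallothionein Mt2 by 1.38. In medium, 4 of 15 were higher, beside 2.86% of all genes, namely Cp by 3.20, C3 by 3.0, Il1rn by 1.56 and Mt2 by 1.51. With both agents against IL17A alone, 3 of 14 were lower and none higher, beside 3.11% of all genes lower, with Cp at -2.01, Il1rn at -1.85 and C3 at -1.72. List medians over genes well above background on both arrays were 0.56, 0.32 and -0.32 in these comparisons, beside 0.003, -0.032 and 0.019 over all genes. With medium alone 1 of 15 was higher, Hpx by 1.11, and 1 was lower, Cp at -1.22, beside 5.42% of all genes past the rule in either direction.

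Of 30 regulators on the array, 25 were measured, and 9 were higher and none lower with IL17A, beside 2.17% of all genes higher. Il6, the main inducer of hepatic acute-phase genes, was higher by 6.76 on the log2 scale. Zc3h12a, an RNase that cuts cytokine mRNAs, was higher by 4.05, Nfkbiz by 3.74, the transcription factor Cebpd by 3.68, the oncostatin M receptor Osmr by 2.42 and the feedback inhibitor Socs3 by 1.72. In medium 6 of 25 were higher, beside 2.86% of all genes. These were Il6 at 5.48, Zc3h12a at 3.96, Nfkbiz at 3.6, Cebpd at 3.38, Socs3 at 1.16 and Osmr at 1.14. With both agents against IL17A alone 1 of 25 passed the rule, Il6 at -1.33, beside 6.33% of all genes in either direction. The largest differences among the rest were Nfkb1 at -0.98, just under the rule, Cebpa at 0.84 and Atf3 at -0.76. Nfkbiz was at 0.11, Cebpd at -0.62 and Zc3h12a at -0.42. The receptor genes Il17ra and Il17rc differed by -0.10 and -0.28 with IL17A. Medians of the list were 0.67, 0.50 and -0.15 in these comparisons. With medium alone 2 of 25 were higher, Osmr by 1.66 and Cebpa by 1.12, and none lower, beside 2.45% of all genes higher.

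**Figure D4:**
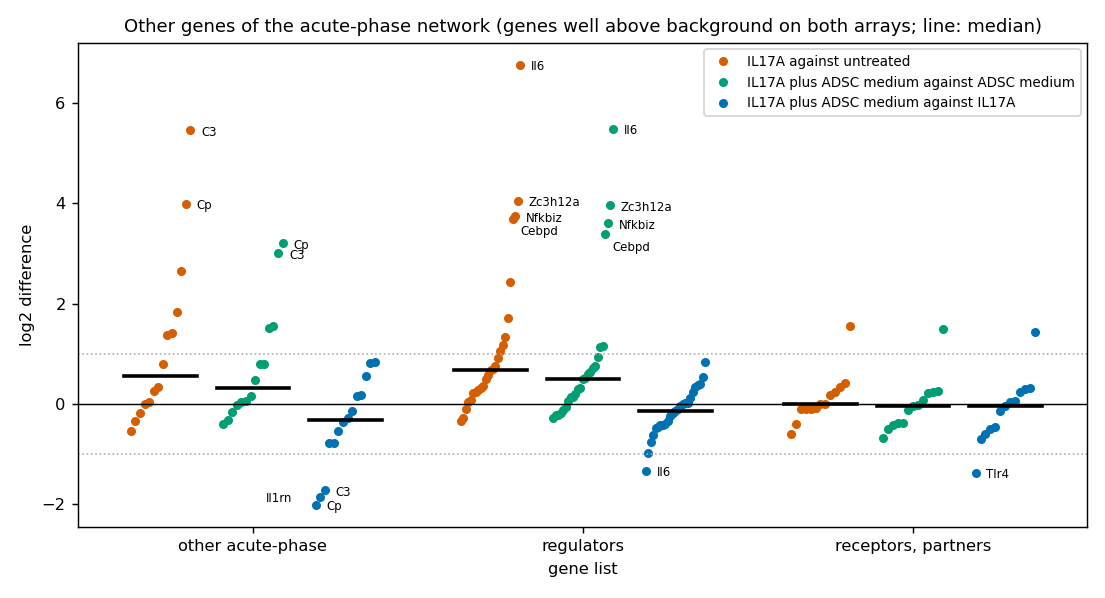
Log2 difference (vertical axis) of each gene well above background on both arrays in 3 gene lists, coloured by comparison, with a line at the median and dotted lines at 2-fold. With IL17A the other acute-phase genes and the regulators have medians of 0.56 and 0.67 and the receptors and partners -0.01.

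Among receptors and binding partners of the encoded proteins, the counts were too small to be read against the share of all genes. With IL17A, 1 of 13 measured passed the rule, beside 4.46% of all genes: Tnfaip6, whose product binds pentraxin 3 in hyaluronan matrix, was higher by 1.55, and in medium it was higher by 1.49. The lipocalin-2 receptor genes Slc22a17 and Lrp2 differed by 0.00 and -0.40 with IL17A, and the amyloid receptors Tlr2 and Tlr4 by 0.23 and -0.10. With both agents against IL17A, 2 of 14 passed, beside 6.33% of all genes, with Tlr4 lower at -1.37 and P2rx7 higher at 1.44. With medium alone, without IL17A, 1 of 13 passed, beside 5.42% of all genes: P2rx7 was higher by 1.24, and Tlr4 was at -0.98, just under the rule. Of 13 genes of iron handling 11 were measured, and none passed the rule with IL17A, beside 4.46% of all genes, too few to be read against that share. With both agents against IL17A 1 of 11 passed, Bdh2 higher by 1.18, beside 6.33% of all genes. Of 8 negative acute-phase genes 3 were measured with IL17A. Igf1 was lower at -1.92 and Rbp4, also a lipocalin, higher at 1.03, beside 4.46% of all genes in either direction. Among 11 lipocalin relatives 5 were measured with IL17A, and Apod was higher by at least 1.67 beside Rbp4, with 2.17% of all genes higher. With both agents against IL17A 3 of 5 were lower, beside 3.11% of all genes lower. Ptgds was at -2.01 and Apod at -1.64, both as limits, and C8g at -1.10. All were dim with both agents, at log2 levels of 2.36, 1.60 and 3.52. With medium alone 2 of 4 were lower, Ptgds at -2.37 and C8g at -1.38, beside 2.97% of all genes lower. The negative acute-phase genes and lipocalin relatives measured were likewise too few to be read against the shares of all genes. Of the pentraxin relatives, none of the 5 on the array was well above background.

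Markers of other cell types were set beside these results. Of 16 stellate and mesenchymal markers 12 or 13 were well above background on each array, with Vim, Acta2 and Col1a1 on all 4, while Reln and Hand2 were on none and the retinoid-storing enzyme Lrat only with both agents. Their summed linear level was 143818 in untreated cells, 98538 with IL17A, 118415 with medium and 89253 with both. These sums mostly reflect the brightest markers, Vim, Col1a1 and Col1a2. They were at log2 levels of 15.63, 15.02 and 14.77 in untreated cells and 15.04, 14.14 and 13.87 with IL17A. Among markers above background on both of these arrays, Col3a1, Spp1 and Pdgfra were higher with IL17A and the others lower. Col3a1 was at 12.69 against 12.34, Spp1 at 12.96 against 12.17 and Pdgfra at 8.39 against 7.75. Of 12 hepatocyte markers 1 or 2 were above background per array, with a summed level of 33.5 to 36.1, and Alb, Ttr, Apoa1 and Hnf4a were on none. Tat was above background on all 4 arrays, and Apoh on all but the IL17A array. Of 12 macrophage markers 6 or 7 were above background per array, with sums of 601, 1394, 603 and 919, or 132, 149, 184 and 188 without Cd14. Cd14, Cd68, Csf1r, Lyz2, C1qb and Fcer1g were above background on all 4 arrays, with Csf1r at 3.15, 4.56, 3.35 and 4.29. Ptprc was above it only with both agents, and Adgre1, Clec4f, C1qa and Tyrobp were on none. Of 9 neutrophil markers 2 or 3 were above background per array, with sums of 93.4, 141, 126 and 121, or 92.2, 102, 125 and 94.5 without Camp. S100a8 and Mpo were above background on all 4 arrays, and S100a9, Elane and Ngp were on none. Camp, an antimicrobial peptide gene in that list, was above background on the IL17A arrays only, at 5.28 and 4.70. Endothelial sums lay between 49.2 and 61.0 and adipocyte sums between 588 and 714, and cholangiocyte sums were 1026, 568, 1141 and 611. Among the cholangiocyte markers Krt19 was at log2 levels of 9.38, 7.99, 9.36 and 7.14 in that order. Sox9 was at 8.32, 8.15, 8.81 and 8.79 and Krt7 at 5.25, 4.65, 4.95 and 4.46. Epcam and Cftr were above background on no array. What part the macrophage, neutrophil and cholangiocyte values have in the members' differences was not tested. In RNA from a whole culture, fewer cells of a kind and less RNA per cell cannot be told apart.

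The genes nearest in pattern were found as those with the smallest distance between log2 levels over the 4 arrays, each centred on its own mean, with dim values held at the array's lowest value above background, among 13615 genes. For Saa3 they were Urah at 1.29, Lcn2 at 1.31, Il6 at 1.40, C3 at 1.69 and Cxcl5 at 1.81. For Lcn2 they were Ankk1 at 0.77, C3 at 0.78, Cp at 1.25, and Dcn and Slc39a4 at 1.30. Saa1 was nearest to Serpinb1c, Egflam, Ypel4, Crhbp and Mmp19, at 0.19 to 0.29, and Ptx3 to Wdyhv1, Syt7, Olr1, St3gal1 and Ppbp, at 0.23 to 0.32. These distances describe 4 arrays and carry no test.

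The upstream sequence of the 4 genes detected on 2 or more arrays is shown because they were higher together with IL17A. Sequences are RefSeq's on GRCm38.p6, a build other than that of the probes, and cover the 250 bases before the start site. Entries were listed for 7 of the 9 genes, and Hp and Orm1 were not among them. Capitals mark matches on either strand to the NF-kB letters, GGG and CC with any 5 bases between, and to TTGCNNAA, the C/EBP letters. The positions are chr7:46715677-46715926 for Saa3, chr2:32387740-32387989 for Lcn2 and chr7:46742981-46743230 for Saa1, all on the minus strand, and chr3:66219637-66219886 on the plus strand for Ptx3.
Saa3: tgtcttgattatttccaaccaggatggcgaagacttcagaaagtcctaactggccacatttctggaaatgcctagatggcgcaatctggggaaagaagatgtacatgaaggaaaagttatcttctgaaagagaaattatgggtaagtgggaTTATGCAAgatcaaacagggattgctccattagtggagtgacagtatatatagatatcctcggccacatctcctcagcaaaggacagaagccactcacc
Lcn2: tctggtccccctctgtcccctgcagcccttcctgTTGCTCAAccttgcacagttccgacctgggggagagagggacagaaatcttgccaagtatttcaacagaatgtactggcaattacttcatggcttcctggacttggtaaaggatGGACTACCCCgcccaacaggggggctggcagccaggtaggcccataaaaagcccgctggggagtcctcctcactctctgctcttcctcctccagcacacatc
Saa1: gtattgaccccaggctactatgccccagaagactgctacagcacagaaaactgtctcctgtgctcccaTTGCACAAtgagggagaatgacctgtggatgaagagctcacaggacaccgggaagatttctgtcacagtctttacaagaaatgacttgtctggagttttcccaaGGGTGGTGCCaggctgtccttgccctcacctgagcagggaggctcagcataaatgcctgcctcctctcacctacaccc
Ptx3: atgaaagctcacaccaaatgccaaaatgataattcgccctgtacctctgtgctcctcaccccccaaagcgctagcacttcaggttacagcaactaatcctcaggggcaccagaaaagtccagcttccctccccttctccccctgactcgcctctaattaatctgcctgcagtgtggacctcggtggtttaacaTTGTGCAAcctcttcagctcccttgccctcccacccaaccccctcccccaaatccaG
All 7 listed promoters, searched from 250 bases before to 50 after the start, held at least 1 match to TTGCNNAA, which 10.8% of 32851 promoters hold. A match to the NF-kB letters was found in Saa1, Saa2, Saa4, Lcn2 and Ptx3, beside 50.8% of promoters, and in neither Saa3 nor Orm2. Counted from the start site, the C/EBP match begins at -216 in Lcn2, -182 in Saa1, -99 in Saa3 and -57 in Ptx3, and the NF-kB match at -102 in Lcn2 and -78 in Saa1. The Ptx3 match to the NF-kB letters begins at -1, and a second match overlaps it, so a single capital G ends the printed run. No listed promoter held TTCNNNGAA, the STAT letters, which 8.3% of promoters hold. Saa1 and Saa2 were 94.8% identical over the 250 bases before the start, and all other pairs 45.7% to 54.5%. Saa2, Saa4 and Orm2 hold C/EBP matches too and were below background on every array.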

How the data were processed

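Total RNA was labelled with Cy3 and hybridised to 1-colour Agilent arrays, per the labels' protocols, and read with Feature Extraction 12.1.1.1, with probe positions on mm9, per the file headers. The deposited intensity columns hold linear processed signals and their error, beside mean and background signals that served an alternative. Flags of spots above background, saturated or outlying are deposited as score columns. Quantile normalization is named in the series' design text, and R 3.5.1 in the submitters' processing notes. The dose and time of IL17A and medium, and the threshold of the authors' lists, are not given in the sources used here.

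Log2 processed signals of non-control spots, without 91 to 126 outlier spots per array, were quantile normalized with limma 3.58.1 in R 4.3.3, and tables were made in Python 3.11.15. Per array 58.1% to 60.5% of spots were well above background and none was saturated. Probes were named through RefSeq accessions (28696 of 41174), current symbols (5761) or synonyms (163), and the remaining 6554 keep their names in the files. The brightest probe stood for a gene. The members, the gene and marker lists and the motifs were chosen with earlier results of these data known. All members were named. The list genes named past the 2-fold rule were among the 6 (acute-phase, regulators) or 4 (others) with the largest difference in their list. Not every such gene was named in every comparison. Genes named below that rule were chosen after their values were seen. They were Il17ra, Il17rc, Slc22a17, Lrp2, Tlr2, and with IL17A alone or medium alone Tlr4. For both agents against IL17A they were Nfkbiz, Cebpd, Zc3h12a, Nfkb1, Cebpa and Atf3. For the additive fit, lmFit was followed by eBayes (trend on), with Benjamini-Hochberg adjustment over all genes tested. Scripts were tested on simulated data with 200 changed genes. There the 2-fold rule, for IL17A against untreated, called 648 genes, 451 of them falsely (69.6%). The additive fit called 231 genes, 34 of them falsely (14.7%). Each recovered 97 of 100 genes changed 2.83-fold and all 100 changed 8-fold. Alternatives were other scalings, normexp correction, averaged probes, filters and fold rules and, chosen after seeing the data, the measured difference in place of the bound.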

Additional observations from a re-analysis of the deposited data

How the results depend on the processing

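No paired analysis was possible because each group holds 1 array, and for the same reason no replicate could be left out. No member's difference changed sign among those called. Of 132 alternatives of single-member differences, 85 moved by less than the reading SD at the mean level of the arrays compared and 47 by more. The 85 include alternatives that could not move a value, so they are no measure of stability. Filters and the measured difference leave a gene above background on both arrays as it was, and averaging leaves a gene with 1 probe as it was. The 4, 3, 0, 3 and 3 members past 2-fold stayed the same genes with scaling to the 75th percentile or the median. Without the filter on dim probes 6 members passed with IL17A against untreated (Saa2 and Hp added), 4 in medium (Saa2 added, as lower), 1 with medium against untreated (Saa2) and 5 with both agents against IL17A (Saa2 and Hp added). Requiring both arrays above background left 2 members with IL17A against untreated (Saa1 and Ptx3), 1 in medium and 1 with both against untreated (Ptx3 each time), since Saa3 and Lcn2 have a dim side there. At 4-fold, 2 members passed with IL17A against untreated (Saa3 and Lcn2). Normexp correction took Saa1 under 2-fold with IL17A and with both against IL17A. It took the limit of Lcn2 under 2-fold in medium and with both against untreated. It also lowered the limits of Saa3, which stayed past 2-fold. Averaging the probes of Saa1 gave 0.66 and -0.77, because the second probe is dim. Hp passed only at 1.5-fold or with measured differences of 2.75 and -2.46. The additive fit called 980 genes, 165 with scaling to the 75th percentile, 165 with median scaling, 489 with normexp correction, 270 with averaged probes, 953 with genes detected on all 4 arrays (Ptx3 the only member called, Saa3 and Lcn2 not tested) and 0 without the trend (1852 at an unadjusted p under 0.05), and the cause was not tested. Over all genes, normexp correction left 163, 98, 159, 195 and 305 genes past 2-fold in place of 708, 752, 873, 1005 and 1246, in the order IL17A against untreated, both against medium, medium against untreated, both against IL17A and both against untreated. Without a filter these were 2065, 2061, 2297, 2491 and 2665, and at 4-fold 164, 129, 156, 128 and 261. At 1.5-fold they were 1940, 2158, 2450, 2834 and 3207, and with both arrays above background 444, 469, 527 and 801 for all but both against IL17A. With RefSeq-named probes only, 454 passed for both against medium and 556 for both against IL17A. With IL17A against untreated, 345 genes were higher and 363 lower, 263 and 533 with scaling to the 75th percentile, and 411 and 324 with median scaling, which puts the median of all genes at 0.21 in place of 0.003. For both against IL17A these were 511 and 494, 775 and 372, and 445 and 585, with a median of -0.166 in place of 0.019. For both against medium they were 460 and 292, and 723 and 171 with the 75th percentile, and for medium against untreated 394 and 479, and 269 and 655.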

Other observations

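The authors' deposited lists name 861 probes as higher with IL17A than untreated and 1193 as higher with IL17A than with both agents. The first Saa1 probe, at log2 differences of 1.29 and 1.5 here, stands in both of the authors' deposited lists, and so does the Saa2 probe, which was below background on all 4 arrays. The first Ptx3 probe stands in the first of the authors' deposited lists only, and the second, at 1.87, in neither. Saa3, Lcn2 and Hp are in neither of the authors' deposited lists, with measured log2 differences of 9.01, 7.59 and 2.75 against untreated cells and 3.11, 2.65 and 2.46 against both agents, counted as IL17A minus the other array. Of the probes in the authors' deposited lists, 239 and 255 were below background on all arrays, and 145 and 165 were above it with IL17A and below it on the second array. The median log2 difference of the probes in the authors' deposited lists was 1.07 and 1.0. The threshold and filter behind these lists are not given in the sources used here.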
